A study of Setaria italica with 18 samples.

Results

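Leaves of the salt-tolerant foxtail millet variety JK3 were compared with leaves of the salt-sensitive variety B175 after 24 h of salt stress. The comparison was chosen by its libraries, the 3 JK3 libraries (J24) and the 3 B175 libraries (B24) of that time point, which are 6 of the 18 libraries of the series, and it covers all genes of the expression table. Seedlings of both varieties were stressed with diluted artificial seawater, and leaves were also taken at 0 h (J0 and B0) and at 12 h (J12 and B12), with 3 biological replicates per group. JK3 and B175 are different varieties and not lines that differ by 1 gene. J24 and B24 received the same treatment, so a difference at 24 h joins what the varieties differed in before the stress with what they did differently under it, and the libraries of 0 h were used to give the first of these. No unstressed leaves of 24 h are in the series, so stress and time cannot be told apart.

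Sea salt harms a leaf through lack of water, through sodium and through reactive oxygen. Plants answer with sodium and potassium transporters, abscisic acid signalling, compatible solutes, dehydrins and other LEA (late embryogenesis abundant) proteins, chaperones and antioxidant enzymes, while photosynthesis genes are turned down. Varieties of a crop also differ in gene families that evolve fast, among them the NLR immune receptors, which detect pathogen proteins inside the cell, and the receptor-like kinases, which sense signals at the cell surface.

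The values are FPKM (fragments scaled to the length of the gene and the depth of the library), and they were compared on the log2(FPKM + 1) scale, on which the change of a low gene is understated. The 18 libraries held 34738627 to 38798867 fragments, with 34738627, 38484230 and 38764886 in J24 and 36306861, 36444843 and 38491906 in B24. The leaf markers were present in all 6 libraries. Seita.4G175200, the phosphoenolpyruvate carboxylase that fixes carbon in the mesophyll of C4 leaves, had 4764, 5279 and 3106 FPKM in JK3 against 3074, 8204 and 4393 FPKM in B175. Seita.3G247900, pyruvate, phosphate dikinase, had 6937, 7755 and 5685 FPKM in JK3 against 4927, 10290.0 and 6763 FPKM in B175, and neither gene was called. Markers of other leaf states were read as summed FPKM of their lists, with no test. The sums of histones, DNA replication genes and cyclins (111 genes listed) were 6091, 5814 and 6991 in JK3 against 9896, 6552 and 7742 in B175, those of senescence and proteolysis genes (77 listed) were 4338, 5816 and 6047 in JK3 against 4363, 3713 and 3860.1 in B175, and those of pathogenesis-related proteins, chitinases and glucanases (214 listed) were 7347, 6876 and 9189 in JK3 against 6623, 4493 and 6836 in B175. The first list was thus lower in 2 of the 3 JK3 libraries than in every B175 library, and the other lists were higher in 2 of the 3 JK3 libraries or in all of them. Their part in the results below was not tested, and in whole leaves fewer cells of a type and less RNA per cell cannot be told apart.

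B175 replicate 2 stood apart from the other B24 libraries. Its log2 values correlated with those of B24 replicates 1 and 3 at 0.9396 and 0.9419 over the tested genes, against 0.984 between these, and at 0.949 with B175 replicate 2 of 0 h, its closest library. In it 257 genes were over 2 higher on the log2 scale than in the mean of the other B24 libraries and 295 were over 2 lower. The summed FPKM of LEA proteins and dehydrins at 24 h were 8772, 9778 and 14324 in JK3 against 16388, 4854 and 15998 in B175, with B175 replicate 2 the lowest of the 6 libraries and the other B175 libraries the highest. At 4854, B175 replicate 2 was still above the range of B175 at 0 h (1390.1 to 1578). The sums of photosystem and light-harvesting genes were 26336, 31438 and 24410.0 in JK3 against 31687, 74519 and 28068 in B175, with B175 replicate 2 more than 2 times above each of the others and within the range of B175 at 0 h (72765 to 92564). In these files a plant that answered less to the stress, a mislabelled sample and a mixture cannot be told apart for this library. The main counts of called genes below, and those over lists and families, are therefore also given without it.

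**Figure D1:**
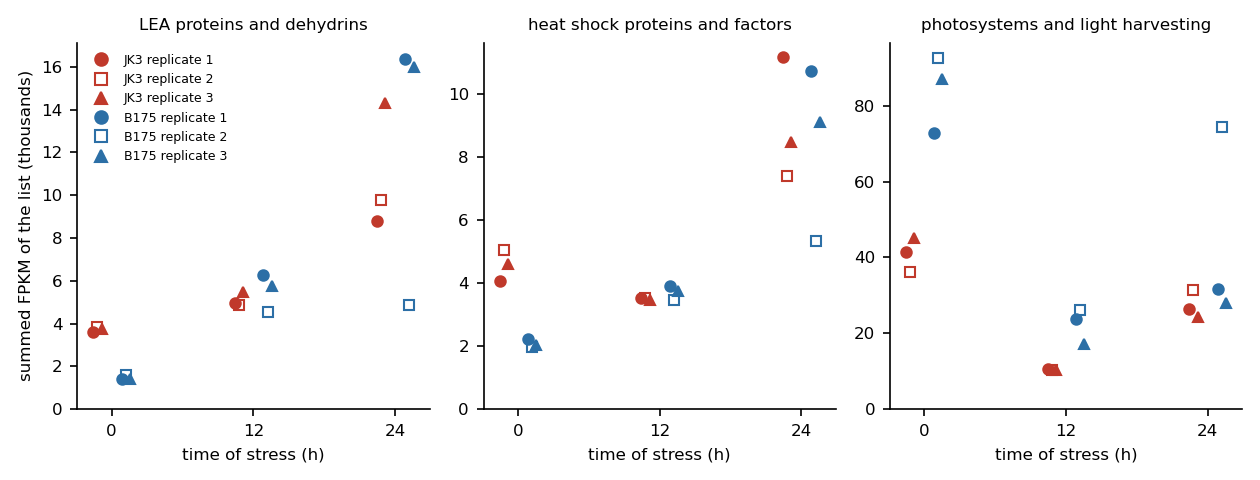
Summed FPKM (divided by 1000, linear axis from 0) of LEA proteins and dehydrins, of heat shock proteins and factors, and of photosystem and light-harvesting genes, for each library of JK3 (red, left) and B175 (blue, right) at 0, 12 and 24 h, with 1 point per library. At 24 h the open blue square, B175 replicate 2, is the lowest of the 6 libraries in the first panels and, at 74519 FPKM, the highest in the last.

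Fewer genes were called between the varieties at 24 h than before the stress or at 12 h. Of 23824 genes tested, 1085 were called in J24 against B24 (log2 fold change above 1 or below -1 and adjusted p under 0.05 in limma), which is 4.55% of the genes, and 542 of them were higher and 543 lower in JK3. The libraries of the groups did not overlap for 1077 of the 1085, against 23.5% of all genes tested. At 0 h the varieties differed in 3050 genes (12.8%), 1616 higher and 1434 lower in JK3, and at 12 h in 1512 (6.35%), 946 higher (3.97%) and 566 lower. Without B175 replicate 2 the comparison at 24 h called 802 genes (3.37%), 365 higher and 437 lower. Of the 1085 genes, 660 were called in the same direction without that library, 342 higher and 318 lower, and no call changed its direction. Without B175 replicate 3 the count was 1654, and in a fit of the 6 libraries alone it was 448, 250 higher and 198 lower. The median log2 fold change over all genes was -0.03, and -0.06 without B175 replicate 2. Below, genes that rose or fell are those called higher or lower in JK3 than in B175 at the same time. Increase and decrease are used in the same way, and a change over time is named as such. Fragments of both varieties were counted on 1 gene set, and in these files a difference in level cannot be told apart from one in mapping.

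Most of the largest increases in JK3 were in genes that B175 hardly expressed at 24 h. Seita.8G050200, a gene with no description, had 101, 105 and 110.2 FPKM in JK3 against 0.751, 0.011 and 0 FPKM in B175 (log2 fold change 6.46 ± 0.79 SE, adjusted p = 5.2e-05). Every JK3 library was above 100 FPKM and every B175 library under 1 FPKM. Seita.7G061500, annotated as wall-associated receptor kinase 2, a class of kinases that binds cell wall pectin, had 97.1, 121 and 66.2 FPKM in JK3 against 1.93, 0.603 and 2.22 FPKM in B175 (log2 fold change 5.23 ± 0.71 SE, adjusted p = 0.00015). It stands in a row of kinases of the same name on chromosome 7, and its neighbours Seita.7G061400 and Seita.7G061600, named here after their values were seen, had 36.2, 74.4 and 31.1 FPKM in JK3 against 2.94, 1.25 and 3.07 FPKM in B175 and 28.9, 35.1 and 18.2 FPKM in JK3 against 0.326, 0.0162 and 0.323 FPKM in B175 (log2 fold change 3.76, adjusted p = 0.00022 and log2 fold change 4.50, adjusted p = 5.6e-05). In all 3 genes the lowest JK3 library was at least 10 times the highest B175 library.

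Several of the other large increases were in genes of the immune system. Seita.8G192200, disease resistance protein RGA5, a type of NLR receptor that in rice works in a pair with RGA4 against the blast fungus, had 36.04, 58.4 and 39.6 FPKM in JK3 against 0.225, 0.322 and 0.555 FPKM in B175 (log2 fold change 5.04 ± 0.50 SE, adjusted p = 5.5e-06). Seita.8G178300, annotated as RGA1, had 42.2, 76.3 and 72.9 FPKM in JK3 against 3.03, 2.07 and 0.0138 FPKM in B175 (log2 fold change 4.75, adjusted p = 6.2e-05). Seita.J027900 on an unplaced scaffold, annotated as RPM1, had 32.8, 27.3 and 26.3 FPKM in JK3 against 0.0656, 0.392 and 0 FPKM in B175 (log2 fold change 4.70, adjusted p = 3.4e-07). The gene before it, Seita.J027800, has no description and had 35.1, 33.4 and 26.6 FPKM in JK3 against 0, 0.329 and 0 FPKM in B175 (log2 fold change 4.89, adjusted p = 6.4e-07). Seita.2G089500, a LURP-one-related protein of a family known in Arabidopsis for a member needed in basal defence, had 24.1, 28.4 and 23.997 FPKM in JK3 against 0.0427, 0 and 0 FPKM in B175 (log2 fold change 4.70, adjusted p = 2.2e-05). In these genes no B175 library passed 4 FPKM and no JK3 library was under 20 FPKM. Of the 8 tested genes named LURP-one-related 15, 4 rose and none fell (4 and 0 without B175 replicate 2), the neighbouring Seita.2G089100 and Seita.2G089200 among them (log2 fold change 2.12, adjusted p = 0.0059 and log2 fold change 2.91, adjusted p = 0.00029, named after their values were seen). Seita.2G089500 itself is also among the 4, and the family was counted after its values were seen. Of all genes, 2.28% rose (1.53% without B175 replicate 2).

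The other genes with the largest increases were Seita.9G347000, Seita.5G024300 and Seita.5G083000. Seita.9G347000, the glutathione S-transferase GSTU6, which couples glutathione to reactive compounds, had 222, 365 and 394 FPKM in JK3 against 16.7, 5.93 and 18.1 FPKM in B175 (log2 fold change 4.58 ± 0.58 SE, adjusted p = 7.4e-05) and was the most highly expressed of the 10 in JK3. Seita.5G024300 had 74.7, 77.001 and 71.5 FPKM in JK3 against 0, 9.88 and 0.5196 FPKM in B175 (log2 fold change 4.89, adjusted p = 0.0011), where the 1 high B175 value is that of replicate 2. Seita.5G083000 had 42.6, 31.4 and 32.04 FPKM in JK3 against 0.643, 0.3495 and 0.496 FPKM in B175 (log2 fold change 4.59, adjusted p = 2.8e-06). Neither has a description. All 10 genes were also called higher in JK3 at 0 h and at 12 h, and none lost its call under any alternative.

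The genes with the largest decreases were of 2 kinds. Some were low in JK3 at all 3 times. Others rose from 0 to 12 h in both varieties, with lower levels in JK3 at 12 h, and at 24 h were low in JK3 alone. Seita.8G253000, with no description, showed the largest difference of all called genes, with 0.9703, 1.36 and 3.48 FPKM in JK3 against 514, 1200.4 and 558 FPKM in B175 (log2 fold change -7.99 ± 0.38 SE, adjusted p = 3.1e-09). At 0 h it had 0.414, 1.56 and 0.294 FPKM in JK3 against 3864, 3505 and 3995 FPKM in B175. Seita.7G289200, also without a description, had 0, 3.69 and 0 FPKM in JK3 against 102, 45.9 and 44.8 FPKM in B175 (log2 fold change -5.18, adjusted p = 1.5e-06). Seita.8G155500, disease resistance protein RGA4, had 0.189, 8.87 and 8.84 FPKM in JK3 against 115, 172 and 168 FPKM in B175 (log2 fold change -4.95, adjusted p = 0.0014). Seita.8G229000, calmodulin-binding protein 60 B of a family with roles in plant immunity, had 0.0411, 3.08 and 0.0552 FPKM in JK3 against 43.03, 40.4 and 58.9 FPKM in B175 (log2 fold change -4.86, adjusted p = 3.4e-07). Seita.7G025400, argonaute 16 of the small RNA silencing machinery, had 0, 0.858 and 0.1703 FPKM in JK3 against 31.9, 58.7 and 22.8 FPKM in B175 (log2 fold change -4.80, adjusted p = 3.4e-06). These were called lower in JK3 at 0 and 12 h as well. Seita.8G119100, with no description, spread widely, with 3.199, 86.1 and 5.395 FPKM in JK3 against 697, 122 and 403 FPKM in B175 (log2 fold change -4.62, adjusted p = 0.0082), and lost its call in the fit of the compared groups alone.

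The other 4 of the 10 largest decreases were not called lower in JK3 at 0 h. Seita.8G072200, a cysteine proteinase inhibitor (cystatin), which blocks papain-like proteases, had 3.84, 1.38 and 0.8599 FPKM in JK3 against 73.6, 387 and 199 FPKM in B175 (log2 fold change -6.02 ± 0.55 SE, adjusted p = 2.1e-06), and at 0 h it had 2.76, 3.27 and 6.301 FPKM in JK3 against 2.52, 10.4 and 3.04 FPKM in B175. Seita.8G247500, patatin-like protein 1, a lipid acyl hydrolase, had 0.413, 1.46 and 0.899 FPKM in JK3 against 26.9, 163 and 98.1 FPKM in B175 (log2 fold change -5.36 ± 0.55 SE, adjusted p = 9.1e-06). Seita.6G134800, annotated only as an acidic protein, had 4.63, 5.51 and 7.58 FPKM in JK3 against 144, 552 and 168 FPKM in B175 (log2 fold change -5.13, adjusted p = 3.7e-06) and at 0 h 25.6, 12.04 and 43.7 FPKM in JK3 against 39.2, 58.7 and 62.3 FPKM in B175 (log2 fold change -1.10, adjusted p = 0.11). Seita.7G008800, a probable E3 ubiquitin ligase named EDA40, had 8.79, 6.18 and 1.66 FPKM in JK3 against 78.5, 153 and 280.3 FPKM in B175 (log2 fold change -4.72, adjusted p = 6.6e-06). In each of them every B175 library of 24 h was over 8 times the highest JK3 library. At 12 h every JK3 library was already below every B175 library in each. Seita.8G072200 then had 26.2, 29.3 and 27.97 FPKM in JK3 against 188, 244 and 106 FPKM in B175. The 12 h values of Seita.8G247500 were 22.5, 27.8 and 32.5 FPKM in JK3 against 99.97, 152 and 134 FPKM in B175.

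**Figure D2:**
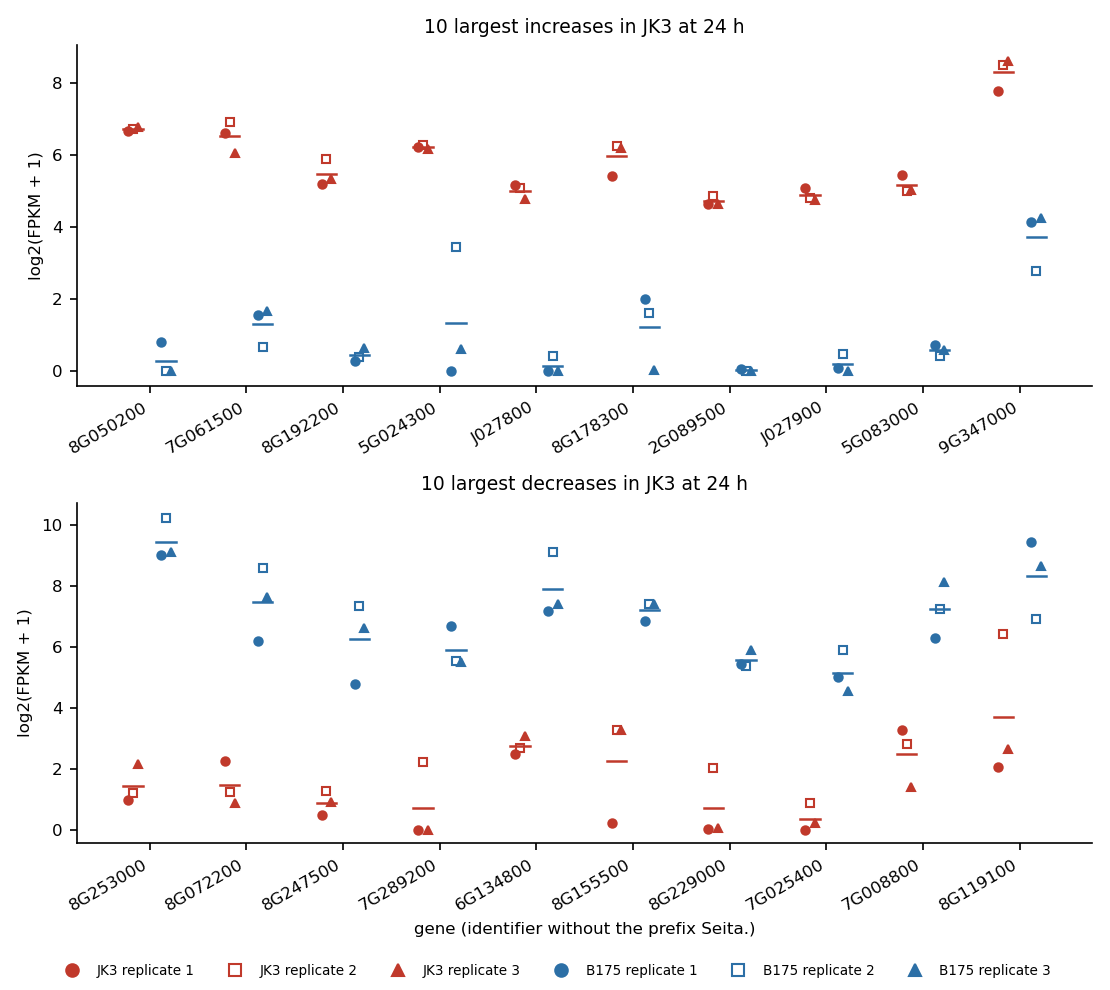
FPKM at 24 h of the 10 genes with the largest increases (top) and the 10 with the largest decreases (bottom) in JK3, as log2(FPKM + 1), 1 point per library of JK3 (red, left) and B175 (blue, right), with bars at the group means. The 20 genes were chosen among those whose groups do not overlap. The highest level is that of Seita.8G253000 in B175 replicate 2 (1200.4 FPKM), and Seita.8G119100 has the closest groups among the decreases.

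NLR immune receptors were the list with the largest share of called genes. Of the 358 tested, 39 rose and 36 fell in JK3, 20.9% against 4.55% of all genes, with a median log2 fold change of 0.19 against -0.03. The calls thus went in both directions, and 69 of the 75 were called the same way at 0 h, beside 66.3% of all called genes. Over all genes 2.28% were called in each direction. Without B175 replicate 2 there were 30 higher and 40 lower (19.6%), and 64 genes were called in both fits. In that fit 3.37% of all genes were called, 1.53% higher and 1.83% lower. Genes named RGA made up most of the list (26 higher and 28 lower of 215 tested, and 19 and 31 without B175 replicate 2). They were followed by those named RPM1 (6 higher and 1 lower of 24 tested, and 6 and 2 without B175 replicate 2). The genes named RPP13-like had few calls (1 higher and 0 lower of 41 tested, and 0 and 0 without B175 replicate 2). NLR genes lie in clusters of near-identical copies, and a fragment from a copy that 1 variety lacks or has changed can be assigned to a neighbour or lost, so the level of a single NLR gene is uncertain.

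Receptor-like kinases were called higher in JK3 more often than lower. Of 693 tested, 87 rose and 25 fell, 16.2% of the list, beside 2.28% of all genes in each direction, and the median log2 fold change was 0.21. With all libraries 96 of the 112 were called the same way at 0 h, beside 66.3% of all called genes. Without B175 replicate 2 there were 61 higher and 24 lower. Without that library 1.53% of all genes were higher and 1.83% lower. Of the wall-associated kinases there were 21 higher and 1 lower of 73 tested, and 16 and 1 without B175 replicate 2 (median 0.51 with all libraries). Of the G-type lectin kinases there were 16 higher and 3 lower of 82 tested, and 10 and 4 without B175 replicate 2 (median 0.36 with all libraries). Of the L-type lectin kinases there were 4 higher and 0 lower of 51 tested, and 4 and 0 without B175 replicate 2 (median 0.51 with all libraries). Among the kinases with leucine-rich repeats the counts were 10 higher and 6 lower of 80 tested, and 7 and 6 without B175 replicate 2 (median 0.02 with all libraries). Among the cysteine-rich kinases they were 10 higher and 5 lower of 70 tested, and 7 and 6 without B175 replicate 2. These subfamilies were drawn from the list after its values were seen, and no test was made of them. The largest decrease was that of Seita.8G224400, a G-type lectin kinase, with 1.48, 9.07 and 1.27 FPKM in JK3 against 58.6, 18.5 and 76.2 FPKM in B175 (log2 fold change -3.54, adjusted p = 0.00046).

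Called genes were unevenly spread over the chromosomes, which are given by the number in the gene identifier. On chromosome 8, 88 of 1395 tested genes rose and 101 fell, 13.5% (12.6% without B175 replicate 2), against 6.42% on chromosome 7 and 3.31 to 4.44% on the other chromosomes. The share on chromosome 8 was also the highest at 0 h (21.1%) and at 12 h (16.7%). It held 129 of the tested NLR genes, of which 36.4% were called, against 12.2% of the 229 NLR genes elsewhere (38.8 and 8.73% without B175 replicate 2). Among its 1176 genes that are neither NLR genes nor receptor-like kinases the share was 10.1%, against 3.61% of such genes elsewhere (8.84 and 2.51% without that library). Of the 1073 called genes on chromosomes, 228 (21.2%) had a neighbouring tested gene called in the same direction. Of all genes tested, 2.28% were called in each direction. The neighbour share of calls placed at random was not computed, so 21.2% is given as a description only. These chromosome and neighbour shares are over genes, which are not independent of their neighbours, and no test was made of them.

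**Figure D3:**
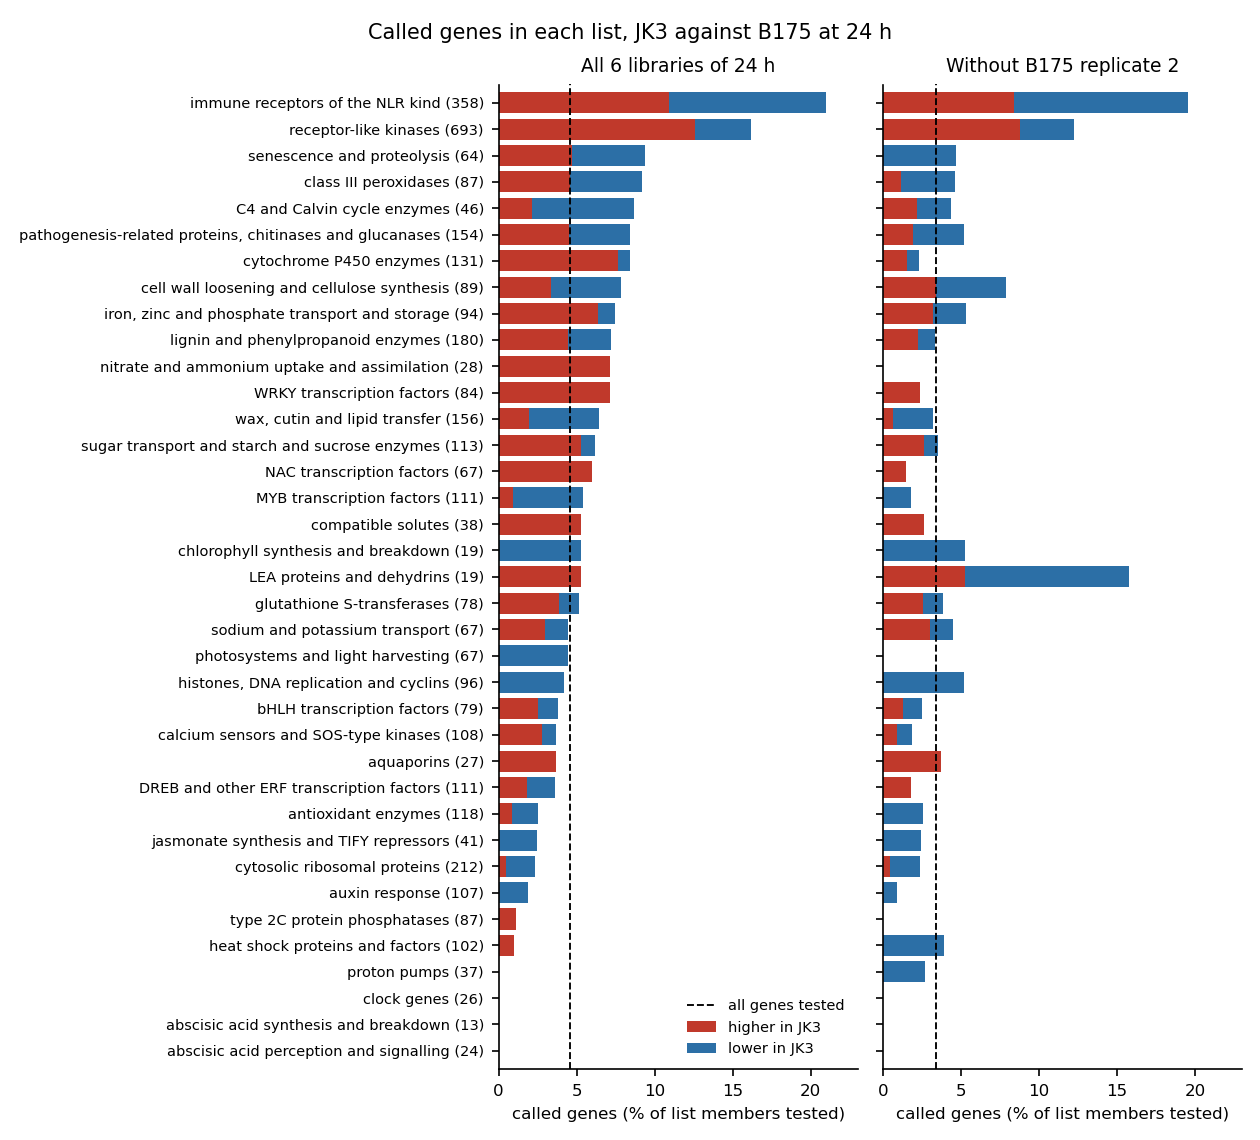
Called genes as a percentage of the tested members of each list (number tested in brackets), higher in JK3 (red) and lower in JK3 (blue), with all 6 libraries of 24 h (left) and without B175 replicate 2 (right). The dashed lines are the shares over all genes, 4.55% and 3.37%, and NLR genes and receptor-like kinases have the longest bars at left (20.9% and 16.2%). Metallothioneins (5 tested) and transposon-derived genes (2 tested), without calls, are not drawn.

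Most of the differences at 24 h were present before the stress. Of the 1085 called genes, 719 (66.3%) were called in the same direction at 0 h and 11 in the opposite one, 580 (53.5%) were called in the same direction at 12 h, and 462 were called in the same direction at all 3 times. In the other direction of reading, 719 of the 3050 genes called at 0 h (23.6%) were called the same way at 24 h. The difference between the varieties changed from 0 to 24 h, by an interaction in the same fit, in 513 genes (2.15%). The change was towards B175 in 406 of these (1.7%) and towards JK3 in 107, and 324 of the 406 were genes called higher in JK3 at 0 h. Of the 1085 genes called at 24 h, 58 had a called interaction, most often as a decrease in JK3 at 24 h that was smaller, absent or reversed at 0 h (33 genes). Without B175 replicate 2 the interaction was called in 1404 genes (5.89%), 440 towards JK3 and 964 towards B175 (4.05%), among them 400 of the 406 and 105 of the 107. It was called in 269 genes without B0 replicate 3, in 277 without B24 replicate 1 and in 298 without J24 replicate 2. At 24 h and at neither other time 242 genes were called, and 85 of these also without B175 replicate 2.

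**Figure D4:**
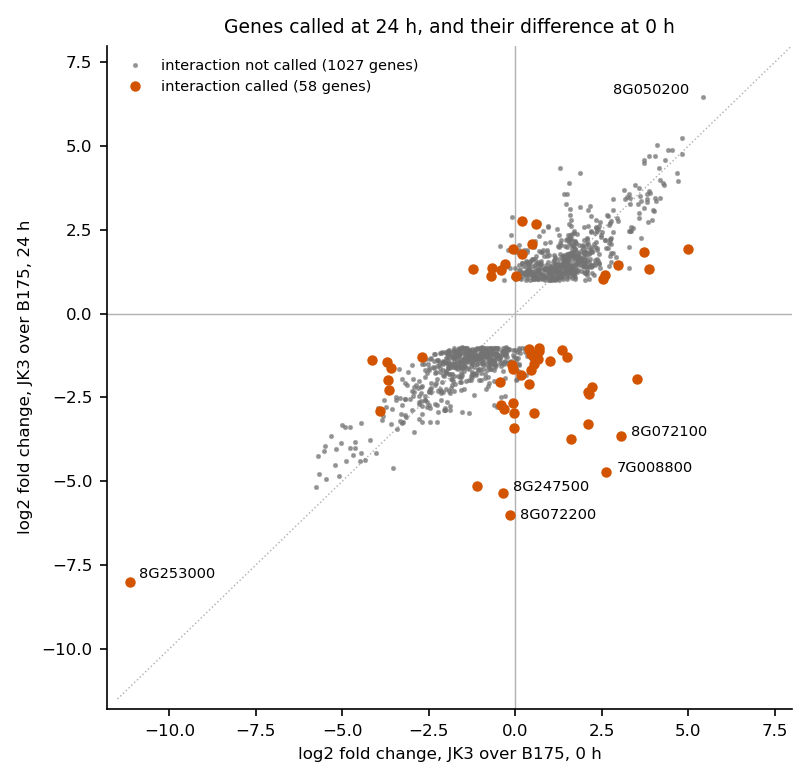
Log2 fold change of JK3 over B175 at 24 h (vertical) against that at 0 h (horizontal) for the 1085 genes called at 24 h, with the dotted line at equal differences. Orange points are the 58 genes with a called interaction, grey points the other genes, and Seita.8G072100 (-3.64 at 24 h and 3.05 at 0 h) lies in the lower right.

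Several genes with the largest interactions towards B175 were higher in JK3 than in B175 at 0 h, high in both at 12 h and low in JK3 at 24 h. For the E3 ligase gene Seita.7G008800 the values at 12 h were 113, 126 and 104 FPKM in JK3 against 243, 490.2 and 292 FPKM in B175, and those at 0 h were 10.8, 12.3 and 12.7 FPKM in JK3 against 0.298, 2.38 and 1.06 FPKM in B175 (interaction -7.35 ± 0.67 SE, adjusted p = 0.00015). All 4 cystatin genes of a row on chromosome 8, Seita.8G072200 above among them, also had a called interaction towards B175. Seita.8G072100 had 37.4, 26.9 and 21.8 FPKM in JK3 against 215, 592 and 367 FPKM in B175 at 24 h (log2 fold change -3.64, adjusted p = 0.0002), 278, 307 and 468 FPKM in JK3 against 457, 649 and 298 FPKM in B175 at 12 h and 56.1, 75.6 and 129 FPKM in JK3 against 3.91, 23.9 and 7.103 FPKM in B175 at 0 h (interaction -6.69 ± 0.71 SE, adjusted p = 0.00024). Seita.8G072300 and Seita.8G072500, named after their values were seen, had 3.05, 2.55 and 2.28 FPKM in JK3 against 13.99, 56.3 and 51.8 FPKM in B175 (log2 fold change -3.30, adjusted p = 0.0021) and 5.47, 2.14 and 1.16 FPKM in JK3 against 1.404, 14.1 and 6.21 FPKM in B175 (log2 fold change -0.86, adjusted p = 0.39), the second one without a call at 24 h, and interactions of -5.41 (adjusted p = 0.0027) and -3.81 (adjusted p = 0.017). The 4 genes carry the same name, and fragments shared between near-identical copies could have been split between them.

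Of the 6 tested genes annotated as acidic protein, most of them on chromosome 6, 3 fell and none rose. Without B175 replicate 2 the counts were the same. Of all genes, 2.28% rose and 2.28% fell (1.53 and 1.83% without that library). The family was counted after its values were seen, and Seita.6G134800 above is among the 3. The interaction of Seita.6G135200 was -6.50 (adjusted p = 0.033), but its 0 h values were 11.02, 2.55 and 153 FPKM in JK3 against 0.183, 0.439 and 0.0603 FPKM in B175, with 1 JK3 library far above the others, and it was not called at 24 h with 5.301, 3.94 and 0.301 FPKM in JK3 against 18.9, 17.6 and 21.3 FPKM in B175. Seita.6G134400 had 1.01, 2.06 and 0.241 FPKM in JK3 against 10.3, 30.1 and 7.21 FPKM in B175 (log2 fold change -2.86, adjusted p = 0.00079). The dehydrin Seita.8G115400, a protein of drying tissues that protects membranes and proteins, was called at 0 h and not at 24 h, with 835, 720.2 and 865 FPKM in JK3 against 7.15, 24.4 and 6.95 FPKM in B175 at 0 h and 3724, 3162 and 5371 FPKM in JK3 against 6801, 2223 and 6129 FPKM in B175 at 24 h (interaction -6.28 ± 0.64 SE, adjusted p = 0.00023). Its difference at 24 h was -0.18 (adjusted p = 0.86), and -0.70, adjusted p = 0.42 without B175 replicate 2.

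The largest interactions towards JK3 began from genes that JK3 expressed less at 0 h. Seita.2G197500, a vacuolar iron transporter, had 7.64, 31.2 and 13.1 FPKM in JK3 against 65.1, 48.2 and 117 FPKM in B175 at 0 h and 61.9, 65.9 and 103 FPKM in JK3 against 24.1, 74.2 and 29.6 FPKM in B175 at 24 h (interaction 3.18 ± 0.77 SE, adjusted p = 0.038). Seita.9G518100, a TIFY protein of the family that represses jasmonate responses, had 2.85, 8.15 and 5.72 FPKM in JK3 against 17.2, 27.2 and 27.9 FPKM in B175 at 0 h and 13.7, 10.1 and 26.3 FPKM in JK3 against 5.54, 9.499 and 9.75 FPKM in B175 at 24 h (interaction 2.85 ± 0.59 SE, adjusted p = 0.017). Neither was called at 24 h, when their fold changes were 0.98 and 0.86 (adjusted p = 0.31 and 0.24). Seita.1G213700, with no description, was under 2 FPKM in every library of 24 h, with 0.564, 0.873 and 1.23 FPKM in JK3 against 0.231, 0.384 and 0.146 FPKM in B175, while at 0 h it had 0, 1.53 and 0.439 FPKM in JK3 against 15.3, 19.7 and 20.1 FPKM in B175 (interaction 4.23 ± 0.55 SE, adjusted p = 0.0011). Seita.2G050600, without a description, was listed at 0 in all JK3 libraries of 24 h against 1.61, 2.13 and 1.13 FPKM in B175, which is at least 20.2-fold lower by the worth of 3 fragments in a library. Seita.8G253000 was lower in JK3 at both times, by less at 24 h (interaction 3.15, adjusted p = 0.0051).

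**Figure D5:**
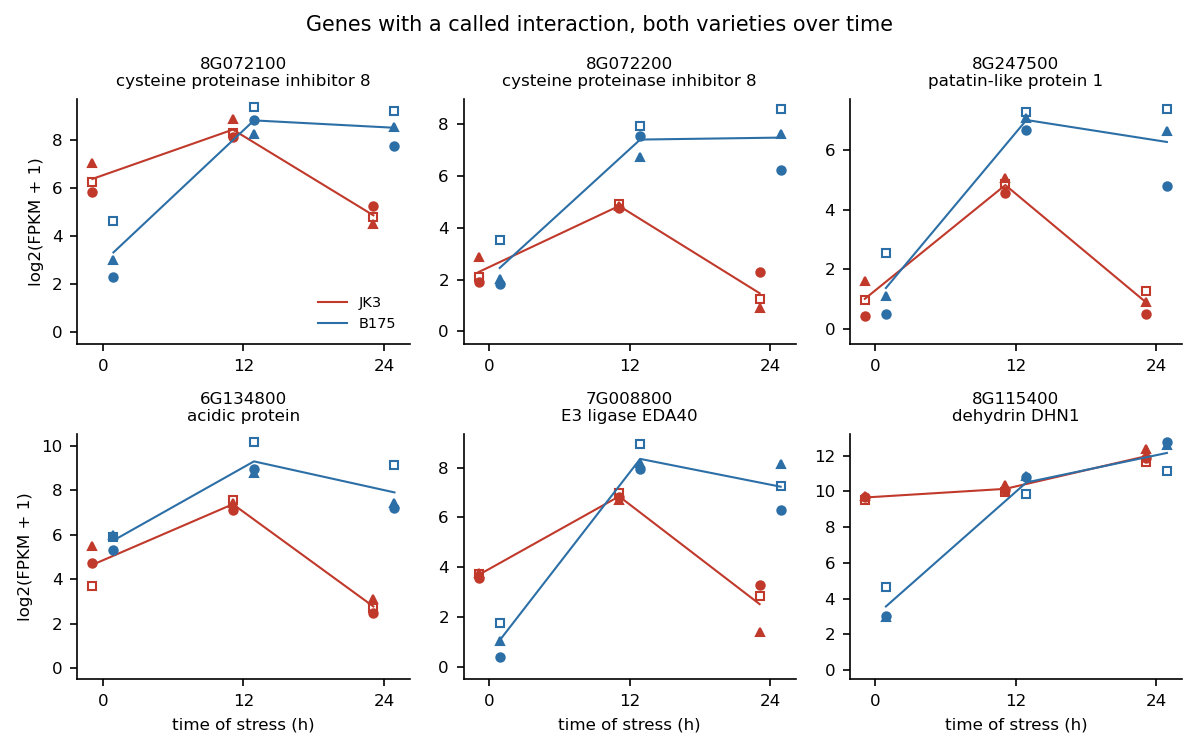
Log2(FPKM + 1) of 6 genes with a called interaction at 0, 12 and 24 h of stress, 1 point per library (circle, open square and triangle for replicates 1, 2 and 3) and lines through the group means, JK3 in red and B175 in blue. In the first 5 genes the level is higher at 12 h than at 0 h in both varieties. In these 5 every JK3 library lies below every B175 library at 24 h, and in all but Seita.8G072100 also at 12 h. The dehydrin Seita.8G115400 was called at 0 h alone.

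Sodium and potassium transporters, which keep sodium out of the leaf cytosol or return it to the vacuole, were called at about the share of all genes. Of the list, 2 of 67 tested genes rose and 1 fell, 4.48% (2 and 1, 4.48%, without B175 replicate 2), beside 4.55% of all genes (3.37% without B175 replicate 2). The same background applies to the lists that follow. Seita.9G182400, a potassium transporter, had 147, 152 and 174 FPKM in JK3 against 61.6, 54.4 and 81.1 FPKM in B175 (log2 fold change 1.26 ± 0.24 SE, adjusted p = 0.0043). Seita.4G110300, the potassium channel KOR1, had 6.16, 4.43 and 4.81 FPKM in JK3 against 11.3, 21.1 and 13.97 FPKM in B175 (log2 fold change -1.39 ± 0.21 SE, adjusted p = 0.00051). Of 4 HKT genes, whose products carry sodium or potassium through the plasma membrane, none was called by limma or by voom on fragments. In limma 0 of them had an unadjusted p under 0.05, beside 5263 of all 23824 genes tested. The highest of them, Seita.7G230500 (HKT7), had 21.01, 18.8 and 21.6 FPKM in JK3 against 20.8, 9.44 and 15.4 FPKM in B175 (log2 fold change 0.46, adjusted p = 0.3). Seita.7G230300 (HKT4) had 9.96, 9.52 and 14.8 FPKM in JK3 against 17.2, 9.67 and 8.17 FPKM in B175 (log2 fold change 0.01, adjusted p = 0.99). Both had been called higher in JK3 at 0 h (log2 fold change 1.92 and 1.54), and the interaction was called for Seita.7G230500 (-1.45, adjusted p = 0.041). Seita.1G068700 (HKT6) and Seita.4G241700 (HKT9) had log2 fold changes of -0.08 and -0.16 (adjusted p = 0.91 and 0.67).

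The 8 sodium/hydrogen exchangers with a mean of at least 1 FPKM, of the family that moves sodium into vacuoles, endosomes or out of the cell, were not called either, by limma or by voom on fragments. In limma 1 of them had an unadjusted p under 0.05, beside 5263 of all 23824 genes tested. Seita.3G409000 (exchanger 7), the type that in Arabidopsis is SOS1 of the plasma membrane, had 13.2, 13.5 and 14.8 FPKM in JK3 against 10.3, 13.6 and 15.7 FPKM in B175 (log2 fold change 0.08, adjusted p = 0.82). Its partners in the SOS pathway were named for their role. The kinase Seita.4G221700 (CIPK24) had 22.8, 30.4 and 31.7 FPKM in JK3 against 35.9, 27.4 and 30.01 FPKM in B175 (log2 fold change -0.14, adjusted p = 0.62), and the calcium sensor Seita.3G166700 (CBL4) had 3.62, 9.52 and 9.41 FPKM in JK3 against 11.7, 8.93 and 8.25 FPKM in B175 (log2 fold change -0.40, adjusted p = 0.4). The widest difference was that of Seita.2G160100 (exchanger 6), with 69.2, 53.6 and 69.9 FPKM in JK3 against 35.1, 22.05 and 57.03 FPKM in B175 (log2 fold change 0.83, adjusted p = 0.053), which passed the limits without B175 replicate 3 (1.17, adjusted p = 0.0026). Seita.4G138500 (exchanger 4) had been higher in JK3 at 0 h (log2 fold change 1.58) and had 16.03, 16.05 and 24.2 FPKM in JK3 against 29.1, 14.1 and 29.4 FPKM in B175 at 24 h (interaction -1.89, adjusted p = 0.035). The other 5 exchangers (Seita.2G160200, Seita.2G422800, Seita.3G038800, Seita.7G006000 and Seita.8G215400) had log2 fold changes between -0.29 and 0.23. Among the proton pumps, which power these exchangers, 0 of 37 tested genes rose and 0 fell (0 and 1, 2.7%, without B175 replicate 2), with a median of 0.04. In limma 4 of them had an unadjusted p under 0.05, beside the same 5263 of all genes, and voom on fragments called 0. Among the aquaporins 1 of 27 tested genes rose and 0 fell, 3.7% (1 and 0, 3.7%, without B175 replicate 2), and the gene was Seita.8G085300 (SIP1-1) with 45.8, 58.6 and 63.3 FPKM in JK3 against 29.5, 12.8 and 22.7 FPKM in B175 (log2 fold change 1.39, adjusted p = 0.004).

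Abscisic acid genes did not differ past the limits. Of 13 genes of abscisic acid synthesis and breakdown and 24 of its perception and signalling none was called by limma or by voom on fragments, with medians of 0.43 and -0.004, and none was called without B175 replicate 2. At an unadjusted p under 0.05 in limma there were 7 and 3 of them, beside 5263 of all 23824 genes tested. Among the type 2C protein phosphatases, which include the brakes of that pathway, 1 of 87 tested genes rose and 0 fell, 1.15% (0 and 0 without B175 replicate 2), beside 4.55% (3.37%) of all genes. The gene was Seita.7G117000 with 52.1, 44.6 and 34.8 FPKM in JK3 against 15.2, 16.7 and 21.4 FPKM in B175 (log2 fold change 1.25, adjusted p = 0.022). It lost the call without JK3 replicate 1 (1.12, adjusted p = 0.078), JK3 replicate 2 (1.23, adjusted p = 0.069), B175 replicate 1 (1.15, adjusted p = 0.067) or B175 replicate 2 (1.22, adjusted p = 0.063). Among calcium sensors and SOS-type kinases 3 of 108 tested genes rose and 1 fell, 3.7% (1 and 1, 1.85%, without B175 replicate 2), and the calmodulin-like Seita.8G176000 had the largest increase, with 6.58, 4.44 and 7.81 FPKM in JK3 against 1.68, 0.464 and 2.15 FPKM in B175 (log2 fold change 1.63, adjusted p = 0.016). The call was lost without JK3 replicate 3 (1.47, adjusted p = 0.075) or B175 replicate 2 (1.30, adjusted p = 0.074). Among the genes of jasmonate synthesis and the TIFY repressors 0 of 41 tested genes rose and 1 fell, 2.44% (0 and 1, 2.44%, without B175 replicate 2). The lower one, Seita.9G127600, a lipoxygenase that oxygenates linoleic acid, had 0.2701, 0.946 and 0.484 FPKM in JK3 against 4.301, 32.04 and 24.6 FPKM in B175 (log2 fold change -3.42, adjusted p = 0.0012) with an interaction of -3.37 (adjusted p = 0.035). Among auxin response genes 0 of 107 tested genes rose and 2 fell, 1.87% (0 and 1, 0.935%, without B175 replicate 2), with Seita.2G311800 (SAUR36) at 1.57, 3.54 and 3.13 FPKM in JK3 against 11.2, 18.7 and 6.53 FPKM in B175 (log2 fold change -1.74, adjusted p = 0.035) and its call lost without each 24 h library but B175 replicate 3, at adjusted p from 0.061 to 0.14.

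LEA proteins and dehydrins were at high levels in both varieties at 24 h, and their comparison turned on B175 replicate 2. Of the list, 1 of 19 tested genes rose and 0 fell, 5.26% (1 and 2, 15.8%, without B175 replicate 2), with a median of -0.06, and of -0.73 without that library. The gene that rose was Seita.5G021400, Lea5-A, with 76.9, 369.6 and 208 FPKM in JK3 against 38.05, 46.1 and 47.8 FPKM in B175 (log2 fold change 2.02 ± 0.45 SE, adjusted p = 0.013), where all JK3 libraries were above all B175 libraries and JK3 replicates 2 and 3 were the highest. The gene was no longer called without JK3 replicate 2 (1.51, adjusted p = 0.066) or JK3 replicate 3 (1.92, adjusted p = 0.055). The 4 genes annotated as dehydrin DHN1 were all called higher in JK3 at 0 h and none at 24 h. Seita.1G267200 had 2381, 2390.4 and 2975 FPKM in JK3 against 3032, 1015 and 3303 FPKM in B175 (log2 fold change 0.25, adjusted p = 0.78, and -0.30, adjusted p = 0.7 without B175 replicate 2). Seita.5G166300 had 97.3, 257 and 472 FPKM in JK3 against 743, 60.7 and 897 FPKM in B175 (log2 fold change -0.59, adjusted p = 0.73, and -1.84, adjusted p = 0.12 without it). Seita.5G166200 had 98.2, 305 and 538 FPKM in JK3 against 586, 33.7 and 757 FPKM in B175 (log2 fold change 0.03, adjusted p = 0.99). In each of these genes there were B175 libraries above all JK3 libraries, and B175 replicate 2 was below all of them. At 0 h the summed FPKM of the list was 3620.2 to 3828 in JK3 against 1390.1 to 1578 in B175, and 8 members were called higher in JK3 and 0 lower, beside 6.78 and 6.02% of all genes. The interaction was called towards B175 in 5 of the 19 members, beside 1.7% of all genes. Without B175 replicate 2 it was called in 10 of them, beside 4.05%.

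Heat shock proteins and factors also were often called at 0 h and hardly at 24 h. At 0 h 31 of 102 tested genes were called higher in JK3, beside 6.78% of all genes, and at 24 h 1 was higher and 0 lower (0 and 4 without B175 replicate 2). The interaction was called towards B175 in 13 of them (39 without B175 replicate 2) and towards JK3 in none. Of all genes, 1.7% had it called towards B175 (4.05% without that library) and 0.449% towards JK3. Their summed FPKM at 24 h were 11167, 7393 and 8480.4 in JK3 against 10727, 5339 and 9109.7 in B175, so the groups overlapped. The gene called at 24 h, Seita.3G168900, is heat stress transcription factor A-4d, with 14.9, 11.4 and 13.01 FPKM in JK3 against 7.59, 2.05 and 7.27 FPKM in B175 (log2 fold change 1.22, adjusted p = 0.049). The call did not hold without JK3 replicate 1 (1.14, adjusted p = 0.13), JK3 replicate 2 (1.31, adjusted p = 0.09), JK3 replicate 3 (1.23, adjusted p = 0.13) or B175 replicate 2 (0.74, adjusted p = 0.19). Among the genes of compatible solutes 2 of 38 tested genes rose and 0 fell, 5.26% (1 and 0, 2.63%, without B175 replicate 2). Seita.7G127300, betaine aldehyde dehydrogenase 1, which makes the osmolyte glycine betaine, had 182, 201 and 276 FPKM in JK3 against 119, 40.7 and 96.1 FPKM in B175 (log2 fold change 1.46 ± 0.31 SE, adjusted p = 0.009), and the value without B175 replicate 2 was 1.01, adjusted p = 0.024. The call was not made without JK3 replicate 3 (1.29, adjusted p = 0.053). No tested gene was described as the proline-making P5CS synthase. The other betaine aldehyde dehydrogenase, Seita.6G151100, had 88.8, 99.3 and 85.9 FPKM in JK3 against 139, 132 and 119 FPKM in B175 (log2 fold change -0.50, adjusted p = 0.081). In that gene every JK3 library was below every B175 library, but the difference did not pass the test.

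Of the enzymes that remove reactive oxygen species, a thioredoxin H was lower and a catalase higher in JK3 than in B175 at 24 h. Among antioxidant enzymes 1 of 118 tested genes rose and 2 fell, 2.54% (0 and 3, 2.54%, without B175 replicate 2), beside 4.55% (3.37%) of all genes. All 3 genes called with all libraries were called the same way at 0 h. Seita.2G061900, a thioredoxin H that reduces disulfides of other proteins, had 473, 79.2 and 388 FPKM in JK3 against 3442, 1626 and 2416 FPKM in B175 (log2 fold change -3.28 ± 0.56 SE, adjusted p = 0.0015). At 0 h it had 84.6, 68.4 and 116 FPKM in JK3 against 981, 1135 and 1071 FPKM in B175. Seita.1G117500, catalase 3, had 89.4, 91.2 and 141 FPKM in JK3 against 57.9, 26.01 and 57.01 FPKM in B175 (log2 fold change 1.23, adjusted p = 0.046). It lost the call without JK3 replicate 1 (1.34, adjusted p = 0.068), JK3 replicate 2 (1.33, adjusted p = 0.083), JK3 replicate 3 (1.01, adjusted p = 0.18) or B175 replicate 2 (0.86, adjusted p = 0.19). Among glutathione S-transferases 3 of 78 tested genes rose and 1 fell, 5.13% (2 and 1, 3.85%, without B175 replicate 2), with Seita.9G347000 named above as the largest. Among class III peroxidases of the cell wall 4 of 87 tested genes rose and 4 fell, 9.2% (1 and 3, 4.6%, without B175 replicate 2). Seita.5G462500, cationic peroxidase SPC4, had 17.5, 20.9 and 67.5 FPKM in JK3 against 9.77, 0.613 and 7.26 FPKM in B175 (log2 fold change 2.53, adjusted p = 0.031). The call was lost without JK3 replicate 2 (2.77, adjusted p = 0.054), JK3 replicate 3 (1.94, adjusted p = 0.15) or B175 replicate 2 (1.68, adjusted p = 0.13). Seita.1G023100, peroxidase 52, had 2.62, 4.04 and 1.82 FPKM in JK3 against 7.097, 17.5 and 7.704 FPKM in B175 (log2 fold change -1.55, adjusted p = 0.024). The gene was no longer called without JK3 replicate 1 (-1.54, adjusted p = 0.063), JK3 replicate 3 (-1.36, adjusted p = 0.11) or B175 replicate 2 (-1.17, adjusted p = 0.11). None of the 5 metallothioneins was called by limma or by voom on fragments (1 at an unadjusted p under 0.05 in limma, beside 5263 of all 23824 genes).

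The transcription factor lists were called at shares from 3.6% (DREB and other ERF) to 7.14% (WRKY), beside 4.55% of all genes. Without B175 replicate 2 the shares ran from 1.49% (NAC) to 2.53% (bHLH), beside 3.37%. Among WRKY factors, which act in defence and stress, 6 of 84 tested genes rose and 0 fell, 7.14% (2 and 0, 2.38%, without B175 replicate 2), with a median of 0.27, beside 2.28% of all genes higher in JK3 (1.53% without B175 replicate 2). At 0 h 25 WRKY genes had been called higher in JK3 and 0 lower, beside 6.78% of all genes called higher. Seita.5G249900 (WRKY19) had 13.6, 18.03 and 8.31 FPKM in JK3 against 4.16, 0.806 and 3.29 FPKM in B175 (log2 fold change 2.01, adjusted p = 0.0095). The call did not hold without JK3 replicate 2 (1.77, adjusted p = 0.052). Among NAC factors 4 of 67 tested genes rose and 0 fell, 5.97% (1 and 0, 1.49%, without B175 replicate 2), with a median of 0.24, and 18 had been called higher in JK3 at 0 h, beside the same 6.78%. Seita.8G036100 (NAC90) had 20.3, 12.5 and 8.77 FPKM in JK3 against 2.15, 0.434 and 1.85 FPKM in B175 (log2 fold change 2.59 ± 0.44 SE, adjusted p = 0.0015) and kept its call under every alternative. Among DREB and other ERF factors 2 of 111 tested genes rose and 2 fell, 3.6% (2 and 0, 1.8%, without B175 replicate 2). Seita.9G268700 (ERF060) had 10.3, 10.2 and 14.7 FPKM in JK3 against 3.15, 0.411 and 1.498 FPKM in B175 (log2 fold change 2.36, adjusted p = 0.0026). Seita.1G259200 (ERF034) had 2.95, 1.74 and 0.735 FPKM in JK3 against 7.85, 19.9 and 7.59 FPKM in B175 (log2 fold change -2.13, adjusted p = 0.029). The call was not made without JK3 replicate 2 (-2.15, adjusted p = 0.074), JK3 replicate 3 (-1.82, adjusted p = 0.13) or B175 replicate 2 (-1.71, adjusted p = 0.12).

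Among MYB factors 1 of 111 tested genes rose and 5 fell, 5.41% (0 and 2, 1.8%, without B175 replicate 2), beside 4.55% (3.37%) of all genes. Seita.4G102300, a L10-interacting MYB domain protein, had 0, 0.247 and 0.423 FPKM in JK3 against 6.28, 7.04 and 7.36 FPKM in B175 (log2 fold change -2.70, adjusted p = 5.3e-07), with the groups far apart at a low level. Seita.3G154700 (MYB36) had 12.3, 11.2 and 17.3 FPKM in JK3 against 4.38, 5.42 and 8.66 FPKM in B175 (log2 fold change 1.05, adjusted p = 0.016). It lost the call without JK3 replicate 3 (0.87, adjusted p = 0.088), B175 replicate 1 (0.86, adjusted p = 0.062) or B175 replicate 2 (0.99, adjusted p = 0.051). Among bHLH factors 2 of 79 tested genes rose and 1 fell, 3.8% (1 and 1, 2.53%, without B175 replicate 2). Seita.9G480900 (bHLH25) had 4.17, 4.26 and 8.01 FPKM in JK3 against 2.28, 0.0225 and 1.72 FPKM in B175 (log2 fold change 1.58, adjusted p = 0.038). The call was lost without JK3 replicate 1 (1.72, adjusted p = 0.058), JK3 replicate 2 (1.71, adjusted p = 0.068), JK3 replicate 3 (1.32, adjusted p = 0.16) or B175 replicate 2 (1.07, adjusted p = 0.16). None of the 26 clock genes was called by limma at 24 h or at 0 h, with 3 at an unadjusted p under 0.05 at 24 h and 0 called there by voom on fragments. Of all 23824 genes tested, 5263 had such an unadjusted p in limma at 24 h.

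Photosynthesis genes were often called lower in JK3 at 0 h and rarely at 24 h. At 0 h 36 of 67 photosystem and light-harvesting genes were called lower in JK3 and none higher, beside 6.02% of all genes. At 24 h none was higher and 3 were lower (4.48% beside 4.55% of all genes, median -0.60), and without B175 replicate 2 none was called (median -0.17). The median at 0 h was -1.04. The interaction was called in none of the 67, beside 2.15% of all genes, so with all libraries a change of the difference was not shown. Without B175 replicate 2 it was called towards JK3 in 10 and towards B175 in none, beside 1.85 and 4.05% of all genes. The largest decrease was that of Seita.1G330600, a light-harvesting protein of photosystem I, with 65.6, 49.4 and 37.3 FPKM in JK3 against 104, 274 and 87.7 FPKM in B175 (log2 fold change -1.44, adjusted p = 0.022). The gene was no longer called without JK3 replicate 2 (-1.44, adjusted p = 0.066), JK3 replicate 3 (-1.24, adjusted p = 0.11) or B175 replicate 2 (-0.94, adjusted p = 0.078). Among chlorophyll genes 0 of 19 tested genes rose and 1 fell, 5.26% (0 and 1, 5.26%, without B175 replicate 2), and this gene, Seita.7G290300, the magnesium chelatase subunit ChlI at the entry to chlorophyll synthesis, had 34.9, 19.6 and 18.7 FPKM in JK3 against 88.2, 166 and 92.6 FPKM in B175 (log2 fold change -2.19 ± 0.29 SE, adjusted p = 0.00011) and kept its call under every alternative.

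Among C4 and Calvin cycle enzymes 1 of 46 tested genes rose and 3 fell, 8.7% (1 and 1, 4.35%, without B175 replicate 2), beside 4.55% (3.37%) of all genes. Seita.8G250600, a Rubisco activase, the protein that frees Rubisco of bound inhibitors, had 496, 576 and 391 FPKM in JK3 against 21.7, 52.02 and 55.9 FPKM in B175 (log2 fold change 3.56 ± 0.33 SE, adjusted p = 3.1e-06), and every JK3 library was over 6 times the highest B175 library. It was also called higher in JK3 at 0 h (log2 fold change 3.28). Activase genes of the same name lie near it, and the more abundant Seita.8G251200 had 1156, 1238 and 1192 FPKM in JK3 against 1080.4, 1264 and 1054 FPKM in B175 (log2 fold change 0.08, adjusted p = 0.86). Since fragments of near-identical copies can be assigned to the wrong one, the sum over the 4 activase genes of chromosome 8 was also taken, and it was 1679, 1833 and 1603 FPKM in JK3 against 1139, 1325 and 1138 FPKM in B175. The sums did not overlap, and they differed far less than the single gene did. Seita.2G137100, the NADP malate dehydrogenase that makes malate for the C4 shuttle, had 20.4, 17.3 and 13.02 FPKM in JK3 against 29.5, 115 and 41.7 FPKM in B175 (log2 fold change -1.59, adjusted p = 0.024). The call did not hold without JK3 replicate 2 (-1.62, adjusted p = 0.065), JK3 replicate 3 (-1.43, adjusted p = 0.1) or B175 replicate 2 (-1.03, adjusted p = 0.09). Seita.5G134300, the abundant NADP-malic enzyme of the bundle sheath, had 2266, 2541 and 2125 FPKM in JK3 against 2583, 3357 and 2419.8 FPKM in B175 (log2 fold change -0.26, adjusted p = 0.5). Seita.3G269600, a Rubisco small chain, had 365, 836 and 683 FPKM in JK3 against 699.9, 1345 and 776 FPKM in B175 (log2 fold change -0.60, adjusted p = 0.31). Neither of them was called.

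Histone and ribosomal protein genes were called at shares of 4.17 and 2.36%. Among histones, replication genes and cyclins 0 of 96 tested genes rose and 4 fell, 4.17% (0 and 5, 5.21%, without B175 replicate 2), beside 4.55% (3.37%) of all genes. Seita.9G564200, a histone H4, had 33.7, 27.6 and 58.6 FPKM in JK3 against 214, 73.2 and 138 FPKM in B175 (log2 fold change -1.74, adjusted p = 0.0054). Among cytosolic ribosomal proteins 1 of 212 tested genes rose and 4 fell, 2.36% (1 and 4, 2.36%, without B175 replicate 2). Seita.3G034600 (L19) had 1.08, 2.32 and 0.797 FPKM in JK3 against 5.87, 7.32 and 4.86 FPKM in B175 (log2 fold change -1.58, adjusted p = 0.00049). Among genes of wall loosening and cellulose synthesis 3 of 89 tested genes rose and 4 fell, 7.87% (3 and 4, 7.87%, without B175 replicate 2). Of the xyloglucan-cutting enzymes among them, Seita.4G246200 had 29.02, 54.2 and 37.9 FPKM in JK3 against 12.4, 18.2 and 13.8 FPKM in B175 (log2 fold change 1.36, adjusted p = 0.02). The call was not made without JK3 replicate 2 (1.13, adjusted p = 0.095), JK3 replicate 3 (1.38, adjusted p = 0.059) or B175 replicate 1 (1.25, adjusted p = 0.063). Seita.2G313800 had 4.598, 4.096 and 5.05 FPKM in JK3 against 8.62, 28.5 and 11.4 FPKM in B175 (log2 fold change -1.45, adjusted p = 0.025). It lost the call without JK3 replicate 1 (-1.45, adjusted p = 0.061), JK3 replicate 2 (-1.38, adjusted p = 0.084), JK3 replicate 3 (-1.51, adjusted p = 0.064) or B175 replicate 2 (-0.97, adjusted p = 0.1).

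Among lignin and phenylpropanoid genes 8 of 180 tested genes rose and 5 fell, 7.22% (4 and 2, 3.33%, without B175 replicate 2), beside 4.55% (3.37%) of all genes. Seita.8G056100, a dirigent protein, which steers the coupling of lignin-like units, had 11.3, 19.9 and 11.1 FPKM in JK3 against 0.355, 0.657 and 0.861 FPKM in B175 (log2 fold change 3.18 ± 0.41 SE, adjusted p = 9.9e-05), with no call lost. Seita.8G013300, a chalcone isomerase of flavonoid synthesis, had 8.67, 5.91 and 4.91 FPKM in JK3 against 32.4, 213 and 24.2 FPKM in B175 (log2 fold change -2.95, adjusted p = 0.031). Its highest value was that of B175 replicate 2, and it was not called without JK3 replicate 1 (-3.14, adjusted p = 0.055), JK3 replicate 2 (-2.90, adjusted p = 0.088), JK3 replicate 3 (-2.79, adjusted p = 0.11) or B175 replicate 2 (-1.98, adjusted p = 0.14). Among genes of wax, cutin and lipid transfer 3 of 156 tested genes rose and 7 fell, 6.41% (1 and 4, 3.21%, without B175 replicate 2). Seita.2G106500, a putative lipid-transfer protein DIR1, had 1.03, 0 and 0.5901 FPKM in JK3 against 3.87, 11.8 and 2.97 FPKM in B175 (log2 fold change -2.09, adjusted p = 0.0032). Seita.2G337200, a GDSL lipase, had 41.4, 42.9 and 16.4 FPKM in JK3 against 6.46, 3.03 and 10.9 FPKM in B175 (log2 fold change 2.17, adjusted p = 0.02). The call was lost without JK3 replicate 1 (1.96, adjusted p = 0.072), JK3 replicate 2 (1.94, adjusted p = 0.086) or B175 replicate 2 (1.76, adjusted p = 0.092).

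Among cytochrome P450 enzymes 10 of 131 tested genes rose and 1 fell, 8.4% (2 and 1, 2.29%, without B175 replicate 2), beside 4.55% (3.37%) of all genes. The largest increase was that of Seita.9G347500 (CYP704C1), with 35.2, 32.5 and 56.8 FPKM in JK3 against 7.67, 0.0173 and 11.8 FPKM in B175 (log2 fold change 3.09, adjusted p = 0.028). The gene was no longer called without JK3 replicate 1 (3.19, adjusted p = 0.059), JK3 replicate 2 (3.24, adjusted p = 0.063), JK3 replicate 3 (2.85, adjusted p = 0.11) or B175 replicate 2 (1.97, adjusted p = 0.11). The gene that fell was Seita.J005300 (CYP93G2), with 3.57, 2.62 and 2.55 FPKM in JK3 against 9.56, 91.5 and 11.7 FPKM in B175 (log2 fold change -2.57, adjusted p = 0.015). The call did not hold without JK3 replicate 2 (-2.52, adjusted p = 0.053) or JK3 replicate 3 (-2.51, adjusted p = 0.058). Among genes of sugar transport and of starch and sucrose 6 of 113 tested genes rose and 1 fell, 6.19% (3 and 1, 3.54%, without B175 replicate 2). Seita.9G410000, the sugar transporter SWEET16, which in Arabidopsis sits in the vacuole membrane, had 28.8, 28.4 and 36.1 FPKM in JK3 against 93.9, 113 and 95.9 FPKM in B175 (log2 fold change -1.67 ± 0.22 SE, adjusted p = 0.00014), and at 0 h 19.6, 12.9 and 13.98 FPKM in JK3 against 7.14, 16.1 and 10.9 FPKM in B175 (interaction -2.12 ± 0.32 SE, adjusted p = 0.0022). Seita.2G205100, sugar transport protein 7, had 66.9, 43.1 and 29.1 FPKM in JK3 against 12.5, 14.7 and 16.2 FPKM in B175 (log2 fold change 1.54, adjusted p = 0.0035).

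Among genes of nitrate and ammonium use 2 of 28 tested genes rose and 0 fell, 7.14% (0 and 0 without B175 replicate 2), beside 4.55% (3.37%) of all genes. Seita.9G019500, an ammonium transporter, had 26.4, 26.1 and 26.5 FPKM in JK3 against 10.7, 5.47 and 14.7 FPKM in B175 (log2 fold change 1.37, adjusted p = 0.013). The call was not made without B175 replicate 2 (1.01, adjusted p = 0.057). Among iron, zinc and phosphate genes 6 of 94 tested genes rose and 1 fell, 7.45% (3 and 2, 5.32%, without B175 replicate 2). Seita.4G237500, zinc transporter 10, had 50.6, 72.8 and 46.8 FPKM in JK3 against 17.4, 11.7 and 15.8 FPKM in B175 (log2 fold change 1.85 ± 0.25 SE, adjusted p = 0.00014) and kept its call under every alternative.

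In JK3 a glucanase was higher and a SAG12 protease lower than in B175 at 24 h, both chosen after their values were seen. Among pathogenesis-related proteins, chitinases and glucanases 7 of 154 tested genes rose and 6 fell, 8.44% (3 and 5, 5.19%, without B175 replicate 2), beside 4.55% (3.37%) of all genes. The lower ones were led by the cystatins described above. Among the increases were abundant enzymes that attack fungal cell walls, chosen after their values were seen. Seita.5G448000, an acidic endo-1,3-beta-glucanase, had 223, 213 and 179.8 FPKM in JK3 against 42.8, 10.3 and 64.5 FPKM in B175 (log2 fold change 2.68, adjusted p = 0.0065), with no overlap, and it was also called higher in JK3 at 0 h and 12 h. Seita.5G251600, an acidic endochitinase, had 726, 667 and 1044 FPKM in JK3 against 239.9, 44.1 and 406 FPKM in B175 (log2 fold change 2.28, adjusted p = 0.043), with no overlap, but the call was lost in 17 of 28 alternatives, among them those without JK3 replicate 1 (2.35, adjusted p = 0.082), JK3 replicate 2 (2.41, adjusted p = 0.086), JK3 replicate 3 (2.09, adjusted p = 0.15) or B175 replicate 2 (1.35, adjusted p = 0.16). Seita.9G131200, a germin-like protein also chosen after its values were seen, had 211, 84.8 and 201 FPKM in JK3 against 68.7, 16.8 and 54.4 FPKM in B175 (log2 fold change 1.91, adjusted p = 0.048), and its call was lost in 16 of the alternatives, among them those without JK3 replicate 1 (1.68, adjusted p = 0.14), JK3 replicate 3 (1.72, adjusted p = 0.16) or B175 replicate 2 (1.31, adjusted p = 0.2). The germin-like Seita.6G037400 had 10.4, 7.47 and 7.04 FPKM in JK3 against 1.02, 0.0405 and 0.307 FPKM in B175 (log2 fold change 2.72, adjusted p = 0.015). It lost the call without JK3 replicate 1 (2.56, adjusted p = 0.052) or B175 replicate 2 (2.502, adjusted p = 0.057). Among senescence and proteolysis genes 3 of 64 tested genes rose and 3 fell, 9.38% (0 and 3, 4.69%, without B175 replicate 2). Seita.8G226300, the senescence-specific cysteine protease SAG39, had 0, 0.496 and 0.515 FPKM in JK3 against 11.6, 52.3 and 5.84 FPKM in B175 (log2 fold change -3.66, adjusted p = 0.00022) and had been lower in JK3 at 0 h too (log2 fold change -5.32). Seita.1G030100 and Seita.5G021300 were chosen after their values were seen, for names that refer to senescence. Seita.1G030100, annotated as the cysteine protease SAG12, a marker of leaf senescence in Arabidopsis, had 14.4, 42.99 and 17.3 FPKM in JK3 against 96.1, 91.6 and 126 FPKM in B175 (log2 fold change -2.18, adjusted p = 0.0038). The groups did not overlap, and at 0 h it had been higher in JK3 (log2 fold change 2.21, interaction -4.38, adjusted p = 0.0013). Seita.5G021300, annotated as SAG21, a late embryogenesis abundant protein in Arabidopsis, had 1335, 2151 and 2084 FPKM in JK3 against 992, 595 and 819 FPKM in B175 (log2 fold change 1.21, adjusted p = 0.02). The call was lost without JK3 replicate 2 (1.09, adjusted p = 0.084), JK3 replicate 3 (1.11, adjusted p = 0.086) or B175 replicate 2 (1.01, adjusted p = 0.081). Seita.9G379800, metacaspase-1, had 113, 125 and 140.2 FPKM in JK3 against 76.5, 26.7 and 71.2 FPKM in B175 (log2 fold change 1.24, adjusted p = 0.014). The gene was no longer called without JK3 replicate 3 (1.16, adjusted p = 0.065) or B175 replicate 2 (0.76, adjusted p = 0.014).

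Read by their GO terms, the genes annotated with a response to salt stress were called at a share below that of all genes. For that term 5 rose and 6 fell of 365 tested, 3.01% (4 and 4, 2.19%, without B175 replicate 2), beside 4.55% (3.37%) of all genes. For the response to water deprivation 3 rose and 3 fell of 248 tested, 2.42% (3 and 2, 2.02%, without B175 replicate 2). For the response to abscisic acid 5 rose and 3 fell of 280 tested, 2.86% (2 and 4, 2.14%, without B175 replicate 2). For the response to oxidative stress 8 rose and 8 fell of 199 tested, 8.04% (1 and 5, 3.02%, without B175 replicate 2). The last share was above that of all genes with all libraries and below it without this one. For photosynthesis 0 rose and 3 fell of 99 tested, 3.03% (0 and 1, 1.01%, without B175 replicate 2). None of 34 genes with the term ion transport was called by limma or by voom on fragments (5 at an unadjusted p under 0.05 in limma, beside 5263 of all 23824 genes). The term defense response had the highest share of these 7 terms, and for it 41 rose and 43 fell of 691 tested, 12.2% (22 and 43, 9.41%, without B175 replicate 2).

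A small number of genes was listed at 0 in all libraries of 1 variety at 24 h and at 1 FPKM or more in all 3 of the other. There were 15 such genes found in JK3 and not in B175, 9 of them with B175 at 0 at all 3 times, and 16 found in B175 and not in JK3, 7 of them with JK3 at 0 at all 3 times. Their levels were low, with a median of the group means of 3.10 FPKM for the genes of JK3 and 2.16 FPKM for those of B175, and 3 fragments were worth 0.0222 to 0.831 FPKM in a library of these genes. Seita.7G004900, a receptor-like kinase with leucine-rich repeats, had 9.34, 11.8 and 10.2 FPKM in JK3 and 0, 0 and 0 FPKM in B175, at least 104-fold higher in JK3 by the worth of 3 fragments in a library. Seita.7G299300, with no description, had 9.19, 5.55 and 3.895 FPKM in JK3 and 0, 0 and 0 FPKM in B175 (at least 27.4-fold higher). On the side of B175, Seita.5G251800 had 0, 0 and 0 FPKM in JK3 and 6.03, 3.23 and 3.32 FPKM in B175 (at least 15.6-fold lower in JK3). Seita.4G091300 had 0, 0 and 0 FPKM in JK3 and 4.43, 4.41 and 1.83 FPKM in B175 (at least 11.3-fold lower). These 4 were named after their values were seen, and in each the variety listed at 0 was also at 0 at 0 and 12 h.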

How the data were processed

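Leaf RNA of both varieties at 0, 12 and 24 h was sequenced with 3 biological replicates per group, and the labels gave the groups. The deposited table held FPKM, which the authors made from their reads. The submitters' processing notes name fastp, HISAT2, HTSeq, DESeq2 and R 3.2.0, with no roles, and a mouse build, while the identifiers are those of foxtail millet, so the build is uncertain. FPKM were whole multiples of 1 fragment in 100% of genes (tolerance 0.05 fragments), which gave the fragments per library.

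Differences were fitted with limma 3.58.1 in R 4.3.3 (trend on log2(FPKM + 1), 6 group means over all 18 libraries, 23824 genes with a mean of at least 0.1 FPKM). Genes were called above 1 or below -1 on the log2 scale with a Benjamini-Hochberg adjusted p under 0.05 over all genes. The p-values measure the spread between these replicates, and an exact permutation test of 3 against 3 libraries cannot go below 0.1. The code was tested on simulated data. Tables were made with Python 3.11.15 (pandas 2.3.3, numpy 2.4.6) and figures with matplotlib 3.10.9.

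The 39 lists were built from the gene descriptions. The comparison and the lists were chosen with earlier results of these data known, and their search words were corrected after the descriptions were read. Named were the 10 largest called and not overlapping differences in each direction, from each list the largest such gene in each direction with a group mean of at least 5 FPKM, the 5 largest interactions in each direction, and the HKT, sodium/hydrogen exchanger and betaine aldehyde dehydrogenase genes with a mean of at least 1 FPKM. Other genes were named after their values were seen. Alternatives were the pseudocount, the low-value filter, the scaling, a replicate block, the libraries fitted, array weights, voom on the recovered fragments, and leaving out each library. Precision is limited by the 3 replicates. No sequences are shown, since no reference with these identifiers was used here. Transposon-derived genes (2 tested) had no call.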

Additional observations from a re-analysis of the deposited data

Results flagged for a closer look

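The difference between JK3 and B175 changed from 0 h to 24 h in 513 genes by limma's interaction test, and the genes of that kind named here are given with the interaction on the log2 scale, where a negative value means that the difference moved towards B175. The E3 ligase gene Seita.7G008800 had an interaction of -7.35, the cystatins Seita.8G072100, Seita.8G072200, Seita.8G072300 and Seita.8G072500 had -6.69, -5.86, -5.41 and -3.81, and the acidic proteins Seita.6G135200, Seita.6G134800 and Seita.6G134400 had -6.50, -4.04 and -2.54. The dehydrins Seita.8G115400 and Seita.1G267200 had -6.28 and -2.69, and the patatin-like Seita.8G247500 had -4.99. Seita.1G030100, annotated as the senescence protease SAG12, had -4.38. The lipoxygenase gene Seita.9G127600 had -3.37, the sugar transporter gene Seita.9G410000 had -2.12, and Seita.7G247100, which encodes a CRIB domain protein, had -2.49.

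Smaller negative values were found in transport and photosynthesis. The exchanger Seita.4G138500 had -1.89, HKT7 (Seita.7G230500) had -1.45, and the Rubisco activase Seita.8G251300, near the activase that was higher in JK3 at 24 h, had -1.999. Towards JK3 the values were 4.23 for Seita.1G213700, 3.18 for the vacuolar iron transporter Seita.2G197500, 3.15 for Seita.8G253000, 2.85 for the TIFY gene Seita.9G518100, 2.75 for Seita.2G050600 and 1.57 for the deoxymugineic acid synthase gene Seita.9G296100. For Seita.2G050600, which is listed at 0 in JK3 at 24 h, the value depends on the pseudocount and is no bound.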

How the results depend on the processing

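The 1085 calls of J24 against B24 came to 448 with the compared groups fitted alone (430 shared), and to between 741 and 1654 with 1 library left out, the highest without B175 replicate 3. Under the other alternatives the count stayed within 1.5 times, with 1420 at a pseudocount of 0.1 (1011 shared) and 1273 by voom on fragments (958 shared). Quantile normalization gave 602 higher and 466 lower. The interaction count of 513 came to 222 with the compared groups alone, to 1893 with array weights and to between 269 and 1404 with 1 library left out. NLR calls came to 113 by voom (75 in the report), and calls of receptor-like kinases to 59 with the compared groups alone (112 in the report). Lists with a share at least 2 times that of all genes numbered 4, but 2 with the filter on the libraries of 24 h and 2 to 8 with 1 library left out. Genes listed at 0 in 1 variety numbered 61 (JK3) and 72 (B175) at a limit of 0.1 FPKM, and 2 and 0 at a limit of 5 FPKM. The cause was not tested for any of these. The counts at 0 h and 12 h stayed within 1.5 times under every alternative run. Of the 117 named genes, 86 were called and 41 kept the call under all of their alternatives, and no sign was reversed among called values.

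With the replicate number as a block 1065 genes were called, 1014 of them shared. The deviations of J24 and B24 libraries with the same number correlated at -0.18, 0.16 and 0.23, so the numbers do not pair the libraries. Fits without a library leave 2 in its group, and they assume that these vary like the other groups. Genes under about 1 FPKM rest on few fragments, and their changes are understated by the pseudocount.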

Other observations

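Of the 1085 genes called in J24 against B24, 242 were called at neither 0 h nor 12 h, and 85 of these were also called without B175 replicate 2. Those with the largest differences and a description, chosen after their values were seen, were of several kinds. Seita.7G085400, the desiccation-related protein PCC13-62, had 17.4, 22.1 and 38.3 FPKM in JK3 against 4.89, 0.229 and 7.11 FPKM in B175 (log2 fold change 2.72, adjusted p = 0.011). Seita.9G296100, deoxymugineic acid synthase, which makes the iron-binding phytosiderophores of grasses, had 15.8, 13.8 and 18.6 FPKM in JK3 against 3.72, 2.32 and 3.24 FPKM in B175 (log2 fold change 2.07, adjusted p = 5.6e-05). Seita.6G087600, L-gulonolactone oxidase 2 of a family linked to vitamin C synthesis, had 4.67, 1.97 and 8.89 FPKM in JK3 against 0.628, 0.0782 and 0.488 FPKM in B175 (log2 fold change 1.999, adjusted p = 0.0012). In these 3 genes the JK3 libraries were above the B175 libraries. At 0 h, at low levels and without a call, this also held for Seita.7G085400 and Seita.6G087600. Seita.7G085400 then had 0.202, 1.23 and 0.546 FPKM in JK3 against 0, 0 and 0 FPKM in B175. For Seita.6G087600 it held at 12 h too, with 0.975, 0.911 and 1.998 FPKM in JK3 against 0.556, 0.531 and 0.252 FPKM in B175.

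The following genes were called lower in JK3 at 24 h and were called at neither other time. Seita.J031400, phospholipase D alpha 1, which in Arabidopsis makes the lipid messenger phosphatidic acid, had 3.33, 1.77 and 1.23 FPKM in JK3 against 8.8999, 26.7 and 9.46 FPKM in B175 (log2 fold change -2.25, adjusted p = 0.0017). Seita.7G247100, the CRIB domain protein RIC10, a partner of ROP GTPases, had 0.5997, 1.89 and 1.45 FPKM in JK3 against 8.49, 12.6 and 6.01 FPKM in B175 (log2 fold change -2.10, adjusted p = 0.0043). Seita.8G023500, a pentatricopeptide repeat protein of a family that processes organelle RNA, had 0.676, 0.267 and 0.5303 FPKM in JK3 against 7.72, 1.93 and 7.897 FPKM in B175 (log2 fold change -2.04, adjusted p = 0.00028). The highest JK3 library of 24 h lay below the lowest B175 library in each. At 0 h, without a call, every JK3 library also lay below every B175 library for Seita.J031400 and for Seita.8G023500, and at 12 h for Seita.8G023500. Of the genes named under this heading, only Seita.9G296100 and Seita.7G247100 are among those given above with a called interaction. For the others a change of the difference from 0 to 24 h was not shown.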
